A study of Mus musculus with 1 sample.

Results

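Enzymes that reverse alkylation damage, excise alkylated bases and correct mismatches were read in parental RAW264.7 cells, a macrophage-like mouse cell line. The study treated this line with the alkylating mutagen ENU (1 mg/ml) and sorted lines that no longer took up labelled peroxiredoxin. The sample described here is the parental line, without that treatment, in RPMI-1640 with 10% fetal calf serum, on 1 one-colour array. Mutant lines were not analysed here, so no value below is a response to ENU. The 8 genes were chosen by name because of the mutagen, as Mgmt, Mpg, Alkbh1, Alkbh2, Alkbh3, Msh3, Msh6 and Pms2. Of these, 7 had a probe under their symbol, with 8 probes in all, among 19321 named genes. Mgmt had none in the annotation used and was not analysed here.

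ENU places ethyl groups on oxygens and nitrogens of DNA bases. MGMT takes an alkyl group from the oxygen of guanine onto itself, AlkB-type dioxygenases remove small alkyl groups from ring nitrogens by oxidation, and the glycosylase MPG cuts out alkylated purines for base excision repair. An alkylated guanine that escapes pairs with thymine, and mismatch repair can recognise that pair and start excision of the new strand.

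A signal here is the median pixel intensity of a spot in the Cy5 channel, in arbitrary units with no background subtracted, and each of the 8 probes was 1 spot. The blank limit, 22.98, is the mean plus 2 SD of the spots with no probe material after trimming. The receptor limit, 55.8, stands at the 95th percentile of 1223 probes of olfactory, vomeronasal and taste receptors and is the stricter of the pair. There was 1 array, so no spread between samples, no test and no p-value can be given, and precision is limited by that number. A signal also depends on the probe, so no order of levels among the genes is given.

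All 7 measured genes passed the blank limit, which 72.8% of all named genes passed. The receptor limit was passed by 6 of the 7, against 42.8% of all named genes, and Msh3 was the gene between the limits. The median over the 7 genes was 252 units beside 40.1 over all named genes, each gene taken at its highest probe. These counts describe 7 chosen genes on this array. The macrophage label was checked against markers: 9 of 10 macrophage genes passed the receptor limit, among them Spi1 at 858 and Csf1r at 642, with Mertk at 23.3 between the limits. Of 24 measured markers of T and NK cells, B cells, fibroblasts and epithelia, 15 passed the blank limit and 1, Cldn4 at 249, passed the receptor limit.

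**Figure D1:**
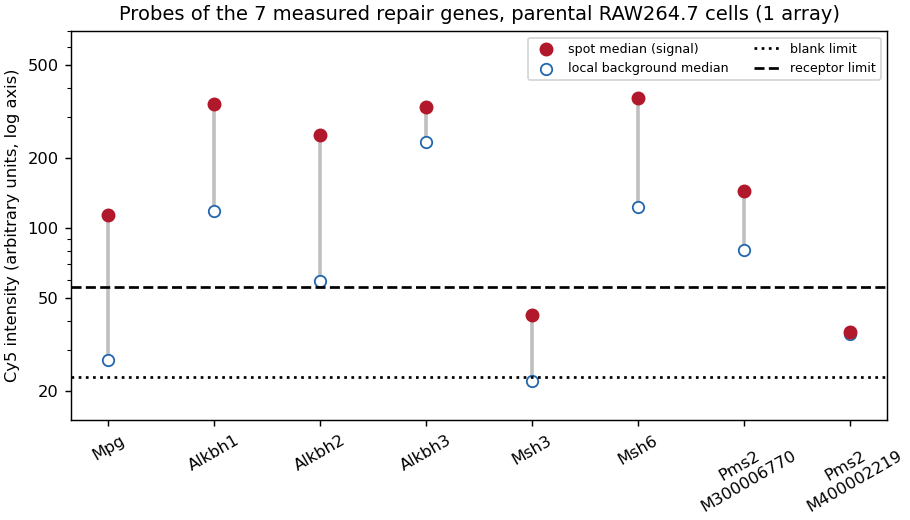
Signal (filled) and local background (open) of the 8 probes of the 7 measured genes on the parental array, in arbitrary intensity units on a log axis, with the blank limit (22.98, dotted) and the receptor limit (55.8, dashed). The signals of 6 probes lie over the dashed line, while Msh3 at 42.6 and the second Pms2 probe at 35.7 end between the limits.

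The AlkB-type dioxygenases all read over both limits. Alkbh2, which removes alkyl groups from nuclear DNA near replication, read 252, or 10.97 times the blank limit and 4.52 times the receptor limit. Alkbh3, which prefers single-stranded DNA and also acts on RNA, read 331, or 14.4 and 5.94 times the limits. Alkbh1, a family member found in mitochondria that demethylates transfer RNA, read 341, or 14.8 and 6.12 times the limits. Each of the 3 had 1 probe, M300015363, M300012546 and M300002523 respectively.

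The Alkbh3 reading came with a high local background. The ring around its spot read 234, so the signal was 1.41 times its surroundings, and only 7.25% of the 3723 named probes with signals of 100 to 400 had a lower ratio. For Alkbh1 and Alkbh2 the background was 118 and 59.4, with ratios of 2.89 and 4.24. After subtraction of local background, Alkbh3 stood at 3.60 times a receptor limit treated alike, in place of 5.94, and remained over it. The brightest of the 8 spots around Alkbh3 read 6662; its part in the Alkbh3 reading was not tested. Over the array, gene spots of 100 to 400 units beside a spot over 5000 had a median background of 56.1 (375 spots), and the others had 56.9 (3657 spots).

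The letters CCGGAAG, the core of sites for ETS factors of the GABP and ELK type, stand within 250 bases before the start of each of these 3 genes and of Pms2, on either strand. The 30 bases around the motif are shown to set its letters in these 4 starts side by side. They are RefSeq sequence of GRCm38.p6 on the strand of the gene, with the motif in capitals.
Alkbh1 (chr12:87443873-87443902, minus strand): gagtcgtgaccCCGGAAGaacctgccagag
Alkbh2 (chr5:114128233-114128262, minus strand): gggcgctgtgcCCGGAAGtcccgcgtaggc
Alkbh3 (chr2:94010825-94010854, minus strand): cgggctacccaCCGGAAGcggaagcggtgg
Pms2 (chr5:143909926-143909955, plus strand): cgctagcccgcCCGGAAGgggcggatcata

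The motif lies 46 to 52 bases before the start of Alkbh1, 27 to 33 before Alkbh2, 107 to 113 before Alkbh3 and 58 to 64 before Pms2, and Alkbh1 holds a second copy on the other strand. In the gene table the Alkbh1 stretch overlaps the spans of Nrp and Slirp. The Alkbh2 and Pms2 stretches overlap the span of their own gene, which reaches farther upstream than the start used here. Of all 32851 promoter windows in the table, 6.91% hold it in these 250 bases, and 14.7% of the 11685 windows with at least 11 CpG, a number that all 8 genes here reach. Among the 8347 windows of genes over the receptor limit the share was 15.1%. The motif was chosen after the sequences had been read, and a match is a description of letters, not of binding.

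Mpg, the glycosylase that removes alkylated adenine and guanine bases, read 114 on probe M200011984. That is 4.95 times the blank limit and 2.04 times the receptor limit. Its local background was 27.3, so the signal was 4.17 times its surroundings. The 150 bases before its start, which lie in no other gene of the table, show 3 GC boxes. None of the 8 genes has the letters TATAAA in its 250 bases. Of all windows 12.4% do, but only 3.93% of those with at least 11 CpG, so their absence is common among such starts. The letters GGGCGG, on either strand, are in capitals.
Mpg (chr11:32226355-32226504, plus strand): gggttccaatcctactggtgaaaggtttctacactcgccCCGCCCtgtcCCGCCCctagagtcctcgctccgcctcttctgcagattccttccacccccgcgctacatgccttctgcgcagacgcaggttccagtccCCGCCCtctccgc

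The mismatch recognition subunits gave readings on different sides of the receptor limit. Msh6, the subunit of MutS-alpha, which binds base mismatches and the pair of alkylated guanine with thymine, read 362 on probe M200003589. It passed the blank limit 15.7 times and the receptor limit 6.48 times, and its local background was 124. Msh3, the subunit of MutS-beta, which binds loops of several unpaired bases, read 42.6 on probe M300001339. That is 1.85 times the blank limit and 0.763 times the receptor limit. Its local background was 22.1, so the spot was 1.93 times its surroundings, and the authors' table gives it the value 11. The readings come from different probes and do not rank the transcripts.

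The start of Msh6 is shown because, with 5 GC boxes in 250 bases, some overlapping, it holds the most among the 8 genes. Msh3, under the receptor limit, and Mgmt hold 4 each. At least 1 GC box stands in 32.7% of all windows and in 70.7% of those with at least 11 CpG. The share of windows with 5 was not counted, so how unusual that number is cannot be said. The 150 bases before the start are given, with GGGCGG on either strand in capitals.
Msh6 (chr17:87974900-87975049, plus strand): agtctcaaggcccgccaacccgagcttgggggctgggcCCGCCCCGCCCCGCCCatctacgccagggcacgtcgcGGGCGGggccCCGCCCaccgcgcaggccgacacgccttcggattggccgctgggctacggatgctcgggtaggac

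Pms2, the endonuclease subunit of MutL-alpha, which nicks the strand after a mismatch is bound, had 2 probes that disagreed. Probe M300006770 read 145, or 6.31 times the blank limit and 2.60 times the receptor limit, over a local background of 80.3. Probe M400002219 read 35.7, or 1.55 and 0.64 times the limits, and its background of 35.0 left 0.691 units after subtraction. The transcript named for the second probe is not among the Pms2 transcripts of the gene table, whereas those of the other 7 probes are. The readings differed 4.06-fold, and 25.3% of the 1283 genes with several probes differed by as much or more.

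**Figure D2:**
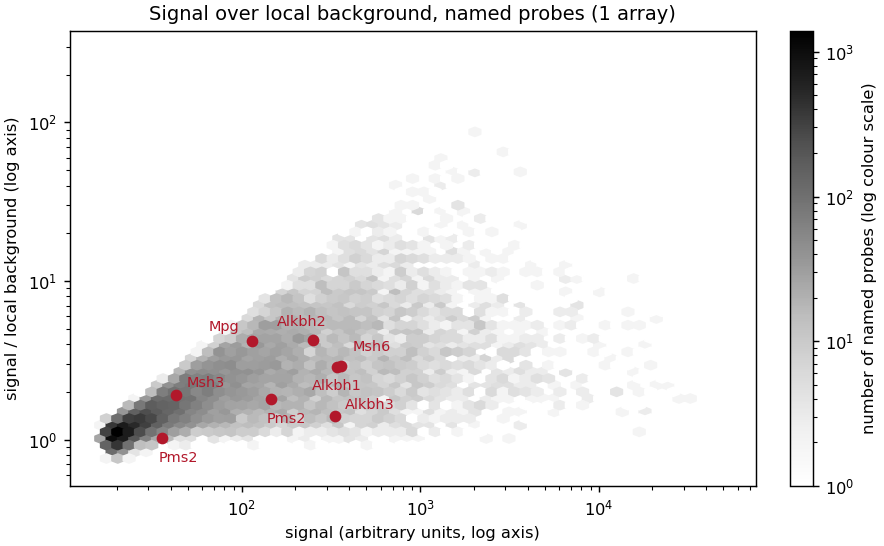
Signal in arbitrary units (x) against the ratio of signal to local background (y), both on log axes, for all 20690 named probes as grey cells shaded by number, with the 8 probes of the 7 repair genes in red. Mpg and Alkbh2 have ratios over 4, Alkbh3 sits low for its signal at 1.41, and the weaker Pms2 probe lies at 1.02.

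Pms2 and Alkbh1 each start beside a gene read the other way. The start of Aimp2, a scaffold protein of the aminoacyl-tRNA synthetase complex, lies 162 bases from the start used here for Pms2. The span of Pms2 reaches farther upstream than that start, so the distance depends on the start taken. Aimp2 read 1242. The start of Slirp, which encodes an RNA-binding protein of mitochondria, lies 57 bases from that of Alkbh1, and Slirp read 1325. Both neighbours passed the receptor limit, at 22.3 and 23.8 times it. They were named after their values had been seen. For the other 5 measured genes the promoter table gives no opposite start within 1000 bases upstream of the start used.

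The other genes of these pathways were read from 8 lists holding 83 genes, of which 75 had a named probe. All 75 passed the blank limit and 68, or 90.7%, passed the receptor limit, against 72.8% and 42.8% of all named genes. Their median was 192 beside 40.1.

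Among other subunits of mismatch recognition, 4 of 6 listed genes were measured and 3 passed the receptor limit. Probes of Mlh3, a MutL subunit, disagreed at 366 and 31.3, while Pms1, another MutL subunit, read 105. Of the meiotic MutS genes, Msh5 read 59.9, just over the receptor limit, and Msh4 read 33.8, between the limits. The machinery that excises and refills the strand gave signal throughout, with 14 of 14 genes over the receptor limit and a list median of 707. Exo1, the exonuclease that removes the mismatched strand, read 254. The ligase gene Lig1 read 707 and 595 on its probes, and the sliding clamp Pcna read 11015 over a local background of 7195. These genes also serve replication.

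In the wider AlkB family and among the partners of Alkbh3, 8 of 9 genes passed the receptor limit. The RNA demethylases Fto and Alkbh5 read 713 and 210. Alkbh4, Alkbh6 and Alkbh7 read 124, 251 and 269, and the transfer RNA enzyme Alkbh8 read 98.3. The local background of Alkbh4 was 91.6, so its signal was 1.36 times its surroundings. In the ASCC complex, whose helicase opens DNA for Alkbh3, Ascc1 read 81.4 and Ascc2 read 92.4. The helicase gene itself, Ascc3, lay between the limits on both probes, at 36.5 and 23.2.

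Other DNA glycosylases passed the receptor limit in 8 of 10 cases. Among the 8 is Tdg, a thymine glycosylase, whose probes read 136 and 24.7; the first had a local background of 149.98, over its own signal. Mbd4 read 86.8, Mutyh 74.9 and Neil1 73.4, while Ogg1, which removes oxidised guanine, read 28.1 and Smug1, a uracil glycosylase, read 31.3, both between the limits. The steps that follow the glycosylase were over the receptor limit in 10 of 10 genes, with a list median of 286. Apex1, the nuclease that cuts at the abasic site left by MPG, read 2376, its homolog Apex2 read 67.6 and Aptx, which trims blocked ends, read 173.

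Nucleotide excision repair, which can remove bulkier adducts, passed the receptor limit in 9 of 12 genes, with Cetn2 at 857, Ddb1 at 575 and Ercc1 at 150. The 3 between the limits were the damage sensor Xpc at 47.6, the helicase gene Ercc2 at 35.4 and 31.8 on its probes, and Ercc6 at 44.6 and 23.2. All 7 translesion synthesis genes passed the receptor limit, among them Mad2l2 at 249, Polh at 99.8 and Poli at 142. So did all 9 measured checkpoint genes, with the kinase genes Atm at 101 and Atr at 187 and its partner Atrip at 161.

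**Figure D3:**
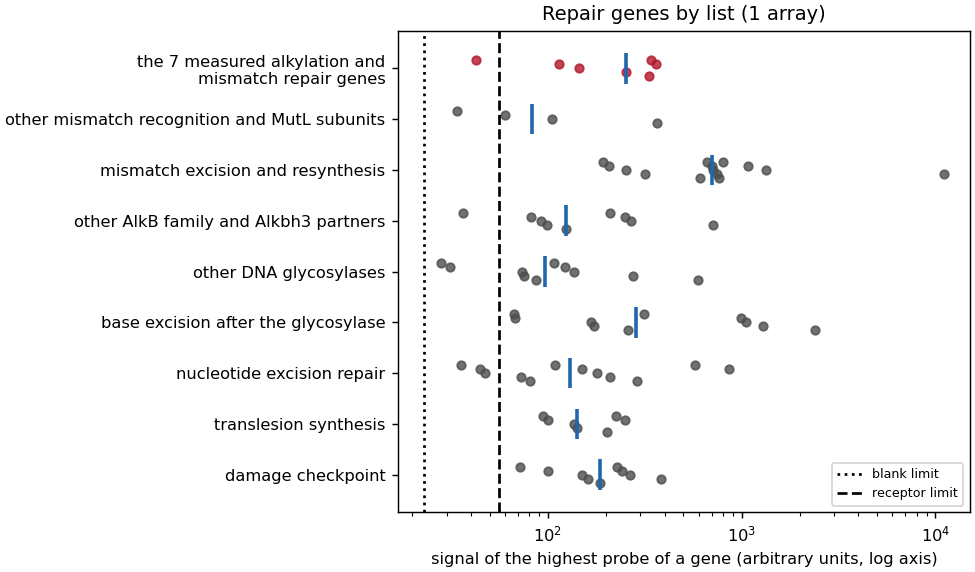
Signal of each gene's highest probe, in arbitrary units on a log axis, for the 7 measured alkylation and mismatch repair genes (red) and for 8 lists of other repair genes (grey), with list medians as blue bars and the blank and receptor limits as dotted and dashed lines. No gene lies left of the dotted line at 22.98, and 8 genes, Msh3 among them, lie between the lines.

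The side of the receptor limit held for Alkbh1, Alkbh2, Alkbh3 and Msh6 in all 6 alternatives tried for it, and for the other 3 genes it did not. For Alkbh1, Alkbh2, Alkbh3 and Msh6 some of these could not change the side. The lowest probe is their only probe, and the 90th percentile is a looser limit. The authors' table rescales the same signal, so it could hardly do so. The 99th percentile and the background corrections could have changed it. Msh3 passed a limit at the 90th percentile of the receptor probes, at 1.04 times, and stayed under the limit in the other 5. Mpg and Pms2 did not pass a limit at the 99th percentile, at 0.779 and 0.994 times, and Pms2 did not pass on its weaker probe, at 0.64 times.

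**Figure D4:**
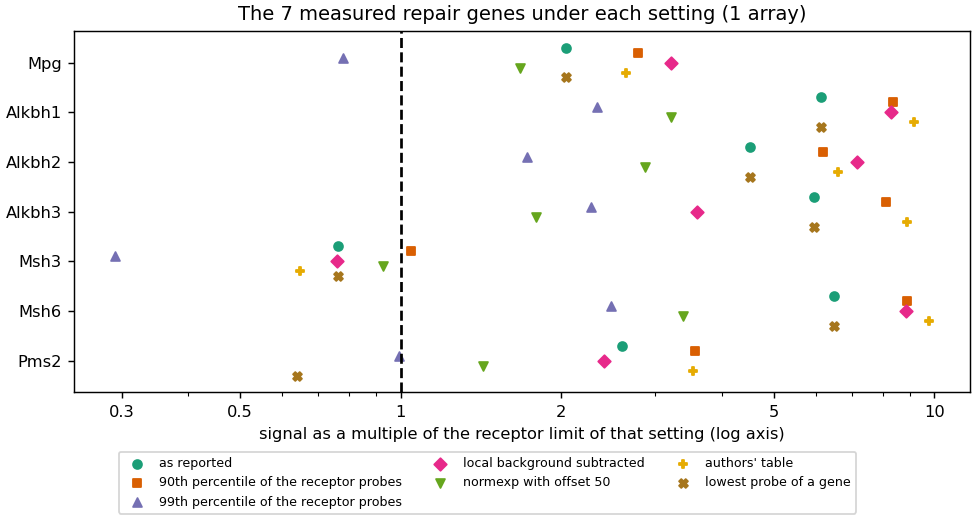
Signal of each of the 7 genes as a multiple of the receptor limit of the same setting (x, log axis, dashed line at 1) for the reported setting and 6 alternatives (marker shapes). Alkbh1, Alkbh2, Alkbh3 and Msh6 stay right of the line throughout, and Mpg, Msh3 and Pms2 have markers on both sides.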

How the data were processed

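Total RNA was amplified to amino allyl RNA and coupled to Cy5, per the labels' protocols. The deposited scanner file holds spot and local background median intensity in the Cy5 channel from 3 gains, with no subtraction, per the file headers, and how the gains were merged is not stated there. All 27456 spots were flagged OK. The authors' deposited table of processed intensity states no scale. Its values over 200 follow the signal minus the blank mean times 0.486 (SD 0.000364 over 2987 probes), so it is linear; why that factor was used is unknown, and its 6784 empty cells are signals of 22.97 or lower.

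The blank limit used 2464 blanks after 5% were left out at each end (mean 20.6, SD 1.18). Symbols came from the platform annotation, updated by gene identifier to RefSeq GRCm38.p6: 20690 of 23473 gene probes had 1 symbol, 2783 none, and 20556 matched. A gene takes its highest probe, which favours genes with several probes. Promoter windows matched all 8 genes by symbol, and 1 start per gene was used, the first listed. Other starts of these genes were not searched.

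The genes and lists were chosen with earlier results of these data known. Named were the 8 genes, both lists of closest relatives, and, of each further list, genes not over the blank limit (0) and the first 3 in alphabetical order over the receptor limit. Genes between the limits, macrophage markers, Cldn4, Tdg, Nrp, Aimp2 and Slirp were named after their values were seen. The limit calculation was tested on simulated data. Python 3.11.15, numpy 2.4.6, pandas 2.3.3 and limma 3.58.1 (normexp, offset 50) were used.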

Additional observations from a re-analysis of the deposited data

How the results depend on the processing

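All 7 measured genes passed the blank limit in each of 11 alternatives: 1 or 3 SD, no trimming, the blanks' 99th percentile, blanks of the spot's own block, negative controls, the No probe spots, the authors' table, subtracted local background, normexp, and the lowest probe. Of all named genes, 63.2% to 77.2% passed under these alternatives. The other repair genes over the blank limit numbered 72 or 75. These alternatives are not all separate checks. The authors' table applies nearly the same cut, with 14071 named genes over it against 14070. Subtracted background and normexp called nearly the same number, 12202 and 12209. A limit of 1 SD is looser, and the lowest probe changes nothing for a gene with 1 probe. The lowest probe was tried on the uncorrected signal only. With subtracted background and with normexp, the weaker Pms2 probe lay under the blank limit, at 0.118 and 0.925 times. Pms2 passed in those settings by its stronger probe. Over the receptor limit, the 7 genes gave counts from 4, at the 99th percentile of the receptor probes, to 7, at the 90th. At the 90th percentile, 49.6% of all named genes passed. The other repair genes fell from 68 to 45 at the 99th percentile, where 27.5% of all named genes passed; a higher limit calls fewer genes by its construction. They numbered 65 to 70 otherwise. Of 112 values of single genes under alternatives, 108 kept their side of the limit. Some of these could not differ, such as the lowest probe of a gene with 1 probe. The authors' table rescales the same signal, and at the receptor limit normexp and subtracted background each called 7997 genes. The 112 values are therefore not separate checks. With 1 array, no replicate could be left out, and no paired analysis was possible because there is 1 sample. A signal near the limits cannot tell a scarce transcript from a probe that responds poorly.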

Other observations

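The local background in the scanner file followed the spot it surrounds. Across 23474 gene spots, which are not independent replicates, the log2 background correlated with the log2 signal of the same spot at a Pearson's r of 0.901. With the brightest of the surrounding spots r was 0.0337, and with their median it was 0.0832. Subtracting this background therefore takes away a quantity that moves with the signal. The receptor limit, taken again on subtracted values, fell from 55.8 to 27.0, so a multiple of it depends on both changes. With signal and limit both subtracted, the multiple went from 2.04 to 3.20 for Mpg, from 4.52 to 7.15 for Alkbh2, and from 5.94 to 3.60 for Alkbh3. The cause of the relation was not tested.

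Of the 6360 named probes between the limits, 617 had a signal under 1.1 times their local background, and the weaker Pms2 probe was among them. The median ratio between the limits was 1.37, below the 1.93 of Msh3.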
